A study of Rattus norvegicus with 4 samples.

Results

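The comparison followed rat neural stem/progenitor cells (NSPCs) on the bare PUCL culture platform through a change of medium. It set 1 library from cells in differentiation medium against 1 library from cells in maintenance medium, chosen by their labels, and these are 2 of the 4 libraries of the study. The study asked how a scaffold guides the differentiation of NSPCs, and the PUCL pair is the medium change without the CNT1 addition to the platform. Cells of both libraries were rat NSPCs of wild-type (WT) genotype. The maintenance library came from cells kept for 24 h on PUCL in knockout DMEM/F12 with StemPro Neural Supplement and antibiotics. The differentiation library came from cells that went on for another 1.5 d on PUCL in B-27 Plus Neuronal Culture medium. Medium and time in culture changed together, so their effects cannot be told apart. The other 2 libraries came from the PUCL@CNT1 platform under the same 2 conditions and were used here as a second, separate pair. Each group was 1 library and no replicate exists, so no test between conditions was possible and no p-value was computed. The labels do not say how many cultures or animals a library holds.

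NSPCs are dividing precursor cells of the nervous system that can give rise to neurons, astrocytes and oligodendrocytes. Growth factors hold them in the dividing state, and their removal is the usual way to start differentiation in culture. The change is commonly followed by the loss of progenitor transcripts and the gain of transcripts of neurons, astrocytes or oligodendrocytes. Dividing precursors also make their own cholesterol and fatty acids for new membrane. The genes of these pathways share control by sterol response element binding proteins (SREBPs), transcription factors held in the endoplasmic reticulum while sterol is plentiful and released when it is scarce. Many promoters of sterol genes carry a CCAAT box, a short motif bound by the factor NF-Y.

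The widest coordinated difference in this pair lay in cholesterol synthesis, so the upstream sequences of 5 of its genes are shown. Of the 19 list members tested, 15 matched a RefSeq promoter entry of the GRCr8 assembly. Pmvk, Fdft1 and Sqle were among the others. Capitals mark CCAAT on the strand shown, or its reverse complement ATTGG. Each line gives the 200 bases before the annotated start, 5′ to 3′ on the strand of the gene. Hmgcs1 lies at chr2:53382104-53382303 on the plus strand, Mvk at chr12:47819504-47819703 on the minus strand and Fdps at chr2:176804817-176805016 on the minus strand. Msmo1 lies at chr16:29746913-29747112 on the plus strand. Cyp51, at chr4:30991493-30991692 on the plus strand, is shown because it holds no copy.
Hmgcs1: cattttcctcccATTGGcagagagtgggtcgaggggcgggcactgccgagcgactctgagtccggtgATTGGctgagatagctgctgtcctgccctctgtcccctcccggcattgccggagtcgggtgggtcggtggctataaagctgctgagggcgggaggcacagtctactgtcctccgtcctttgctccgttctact
Mvk: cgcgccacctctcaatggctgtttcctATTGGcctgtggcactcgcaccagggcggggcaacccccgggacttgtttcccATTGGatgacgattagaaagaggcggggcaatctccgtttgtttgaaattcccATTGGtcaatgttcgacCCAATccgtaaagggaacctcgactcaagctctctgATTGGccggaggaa
Fdps: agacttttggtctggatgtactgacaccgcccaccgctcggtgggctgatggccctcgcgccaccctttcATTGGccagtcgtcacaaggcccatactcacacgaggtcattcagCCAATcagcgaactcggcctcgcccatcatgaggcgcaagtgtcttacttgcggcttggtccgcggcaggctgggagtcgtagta
Msmo1: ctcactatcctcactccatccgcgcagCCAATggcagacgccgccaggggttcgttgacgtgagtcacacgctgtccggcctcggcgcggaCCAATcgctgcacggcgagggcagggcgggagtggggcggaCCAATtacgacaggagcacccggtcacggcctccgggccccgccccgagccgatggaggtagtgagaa
Cyp51: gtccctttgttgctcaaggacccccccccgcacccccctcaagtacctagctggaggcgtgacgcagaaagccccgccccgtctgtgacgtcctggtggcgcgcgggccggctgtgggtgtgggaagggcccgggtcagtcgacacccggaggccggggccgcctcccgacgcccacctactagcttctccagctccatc

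Within these 200 bases Mvk held 5 copies of the motif, Msmo1 held 3, and Hmgcs1 and Fdps held 2 each. Over the 300 bases of a RefSeq entry, from 250 before to 50 after the start, CCAAT was present on either strand in 12 of the 15 cholesterol genes (80.0%). It was present in 37.9% of the promoters of all genes tested on PUCL and in 37.5% of the 33469 entries of the table. The fatty acid synthesis list held it in 9 of 14 (64.3%). The sterol sensing list, whose genes were mixed in direction, held it in 8 of 13 (61.5%). Of all genes lower on PUCL 37.7% held it, and of all genes higher 34.7%. The motif TCACNCCAC, the core of the sterol element, searched on both strands and able to share 1 base with CCAAT at most, was found in 0 of the 15 cholesterol genes and in 1.13% of the promoters of tested genes. A match is a description of letters only, and its absence says only that these letters are not in the window.

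The deposited values were raw read counts per gene symbol. The maintenance library held 6502918 counts with 9683 symbols detected, and the differentiation library held 6580894 counts with 9584 symbols detected. The PUCL@CNT1 libraries held 6035848 and 6855984. Counts of a gene are given below in the order maintenance, then differentiation. Ratios used library sizes adjusted by edgeR's TMM factors, and CPM stands for counts per 1000000 counts of such a library size. Of 16881 symbols, 9800 had 10 or more counts in at least 1 of the 2 PUCL libraries and were compared. A gene was counted as higher or lower only by a rule of size: a ratio of at least 2-fold whose exact 95% interval (Clopper-Pearson) had its nearer bound beyond 1.5-fold. The reads carry no molecular identifiers, so every interval covers counting error only and not the scatter between cultures. Genes were named by rules of size or as cell type markers; list members named beyond those rules were chosen after their values were seen. The ribosomal RNA precursor entry Rn45s held 5.66% of counts in maintenance and 6.72% in differentiation. The labelled cell type was checked against its markers: 9 of 10 neural progenitor markers were detected in each PUCL library, with a summed level of 6984 CPM in maintenance and 8884 CPM in differentiation, and Msi1 was at 0 in both. All 8 microglial markers were at 0 in both, and endothelial markers summed to 14.4 CPM and 2.78 CPM with Pecam1, Cdh5, Tek, Cldn5 and Vwf at 0.

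By this rule, 1677 genes (17.1% of those compared) were higher in differentiation medium and 1588 (16.2%) were lower. These 2 shares are the background for the count of every gene list below. They are not matched for depth: sparsely counted genes passed the rule more often and well-counted genes less often. The median log2 ratio over all 9800 genes was -0.01, with 10% of genes below -1.88 and 10% above 2.01. Most genes past the rule were sparsely counted: their median of the mean count was 51.0, against 178 over all genes compared. At this depth the rule was passed nearly as often by pairs of libraries in the same medium. In genes with a mean of under 30 counts, 75.3% passed it in the PUCL switch, 70.1% between the platforms in maintenance medium and 75.6% between the platforms in differentiation medium. Among genes with a mean of 1000 to 3000 counts the shares were 5.83%, 0.867% and 3.85%. Over all genes either direction was passed by 27.8% between the platforms in maintenance medium and by 32.5% in differentiation medium.

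**Figure D1:**
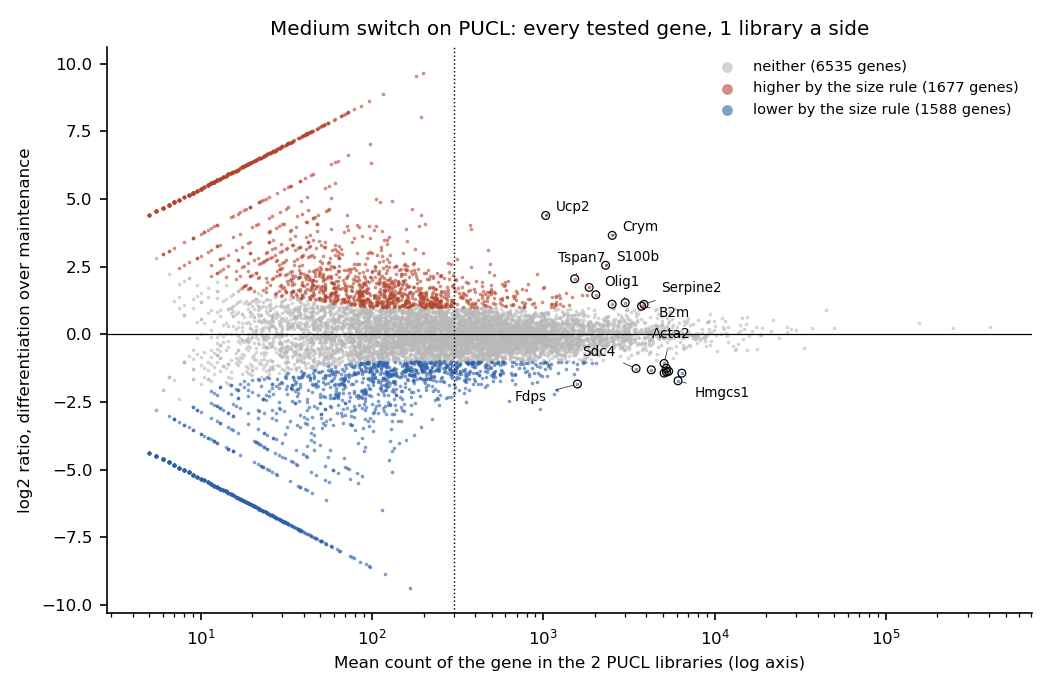
Each point is 1 of 9800 genes, with its mean count in the 2 PUCL libraries on a log axis and its log2 ratio of differentiation over maintenance (prior count 0.5) on the vertical axis. Colours give the size rule, open circles the 10 largest gains and 10 largest losses in CPM, some of them labelled, and the dotted line a mean of 300 counts. The straight lines of points at left are genes at 0 in 1 library, and no such gene lies to the right of the dotted line.

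A mean of 300 or more counts in the pair was therefore used for the main description, a limit chosen after the data were seen. It kept 3630 genes, which held 90.5% of the counts. Of them 143 (3.94%) were higher and 193 (5.32%) were lower in differentiation medium, with a median log2 ratio of -0.03 over all 3630. Between the platforms the rule was passed in either direction by 3.24% of such genes in maintenance medium and by 8.14% in differentiation medium. The differentiation libraries of the 2 platforms thus differed from each other nearly as often as the 2 PUCL libraries did.

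The PUCL@CNT1 pair shares no library with the PUCL pair, so it shows how each PUCL difference looked in a second pair of cultures. On PUCL@CNT1, 17.5% of genes were higher and 15.3% lower after the switch, or 5.61% and 5.11% of those with a mean of 300 or more counts. Of the 143 PUCL genes that were higher at this depth, 123 (86.0%) had a positive log2 ratio on PUCL@CNT1 and 62 (43.4%) passed the rule there in the same direction. Of the 193 lower genes, 158 (81.9%) had a negative ratio there and 53 (27.5%) passed. Over all 3630 genes at this depth 51.0% had a positive log2 ratio on PUCL@CNT1 and 49.0% a negative one. Opposite calls were made for LOC100910558 and Uhrf2 among the higher genes and Arhgef2 among the lower ones. The median log2 ratio of the higher genes was 1.38 on PUCL and 0.85 on PUCL@CNT1, and of the lower genes -1.29 and -0.55. The PUCL values chose these genes, so a smaller size in the other pair says nothing about the platform. Under 30 counts the same sign was seen for 59.2% of higher and 46.6% of lower genes, and at 3000 or more counts for 100% of each. Of all 9065 genes measured in both pairs, 50.9% had a positive and 49.1% a negative log2 ratio on PUCL@CNT1.

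**Figure D2:**
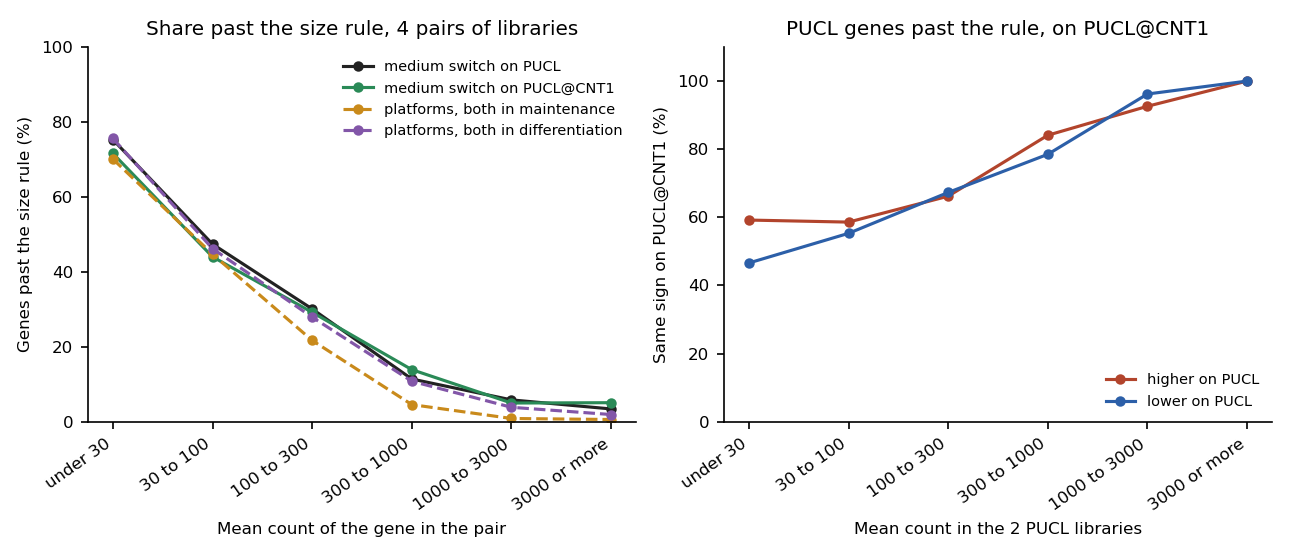
Left, the percentage of genes past the size rule against the mean count of the gene for the 4 pairs of libraries, 2 of which differ in medium (solid) and 2 in platform only (dashed); right, the percentage of genes past the rule on PUCL whose log2 ratio had the same sign on PUCL@CNT1. The share past the rule in the PUCL switch goes from 75.3% under 30 counts to 3.41% at 3000 or more, and the share of the same sign reaches 100% there. Of all genes measured in both pairs, 50.9% had a log2 ratio above 0 on PUCL@CNT1 and 49.1% below 0.

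**Figure D3:**
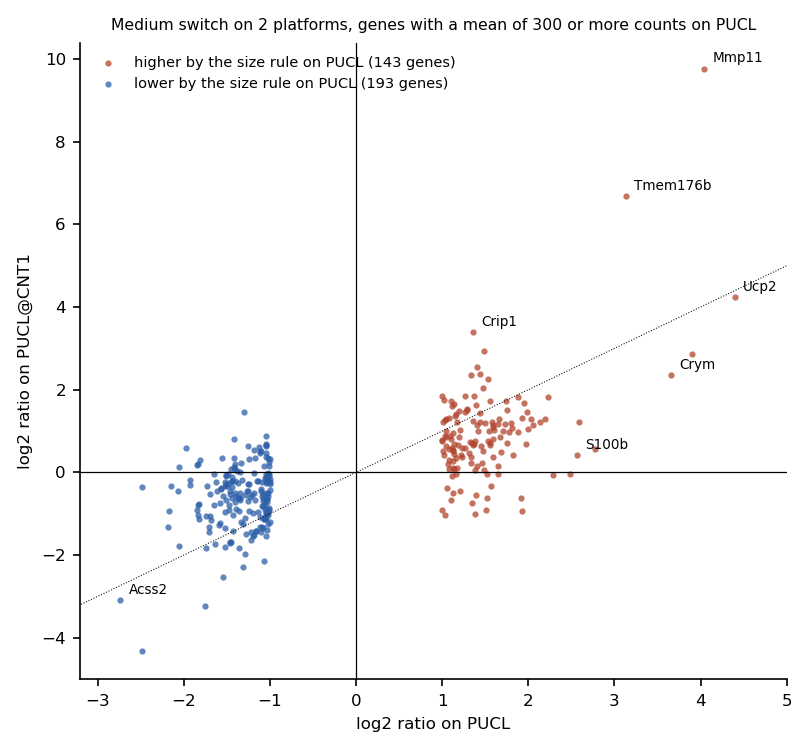
Each point is a gene past the size rule on PUCL with a mean of 300 or more counts, with its log2 ratio on PUCL and on PUCL@CNT1; the dotted line marks equal ratios. Of 143 higher genes 123 lie above 0 on the vertical axis and of 193 lower genes 158 lie below it; Mmp11, the uppermost point, had 0 counts in the PUCL@CNT1 maintenance library, so its height rests on the prior count.

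Cholesterol synthesis was lower in differentiation medium along nearly its whole length. Of 19 genes tested 16 were lower by the rule, 0 were higher, and all 19 had a log2 ratio below 0, with a median of -1.43. The summed level of the list was 10330 CPM in maintenance and 4818 CPM in differentiation. With a mean of 300 or more counts, 12 of 15 were lower, where the background was 5.32%. All 16 lower genes also had a negative ratio on PUCL@CNT1, as had 49.1% of all genes measured in both pairs. Of the 16, 8 passed the rule there. The list median on PUCL@CNT1 was -0.98; the difference between the platforms was not tested.

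The early steps join acetyl units and make mevalonate. Hmgcs1, which makes HMG-CoA, had 9417 and 2817 counts, 3.28-fold lower (95% interval 3.14 to 3.42). Its loss in CPM was the largest of any gene past the rule, from 1428 to 436 CPM. It passed the rule on PUCL@CNT1 too, with a log2 ratio of -1.32. Acat2, the cytosolic thiolase that starts the pathway, had 682 and 275 counts.

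The next enzymes phosphorylate mevalonate and build isoprenoid units. Mvk, mevalonate kinase, had 349 and 136 counts, 2.52-fold lower (2.06 to 3.09). Mvd, the decarboxylase, had 482 and 95 counts, 4.97-fold lower (3.98 to 6.27). Fdps, which makes farnesyl diphosphate, had 2482 and 683 counts, 3.56-fold lower (3.27 to 3.88). Between them in the pathway, 2 genes did not reach the rule. Pmvk, phosphomevalonate kinase, had 662 and 380 counts, and Idi1, the isomerase, had 21015 and 14300, a log2 ratio of -0.53.

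Beyond farnesyl diphosphate the enzymes form squalene, close it into lanosterol and trim lanosterol to cholesterol. Fdft1, squalene synthase, had 1467 and 490 counts, 2.93-fold lower (2.65 to 3.26). Sqle, the squalene epoxidase that follows, was the member closest to no difference, with 1492 and 1226 counts. Lss, which closes the rings, had 172 and 18 counts, 9.37-fold lower (5.75 to 16.2), the largest ratio of the list but also one of its lowest counts. Its log2 ratio on PUCL@CNT1 was -0.98, from 119 and 64 counts.

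The trimming steps were lower in all 8 members tested. Cyp51, the lanosterol demethylase, had 7629 and 2850 counts, and Msmo1, which removes the next methyl groups, had 7439 and 2710. Tm7sf2, a sterol reductase, had 1075 and 189 counts, 5.58-fold lower (4.77 to 6.54), but only 493 and 412 on PUCL@CNT1. Hsd17b7, a keto-reductase, had 244 and 48 counts, and Nsdhl, its partner in demethylation, had 910 and 399. Sc5d had 1427 and 417 counts and Dhcr7, the last reductase of one branch, 1221 and 434. Ebp, the isomerase before them, lay closest to the rule with 517 and 250. The pathway thus showed a shared lower level with 3 members, Pmvk, Idi1 and Sqle, short of 2-fold.

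Genes that sense and carry sterol were mixed. Of 16 tested, 2 (12.5%) were higher and 4 (25%) lower, against 17.1% and 16.2% over all genes, with a median log2 ratio of -0.46. Insig1, which holds the SREBP complex in the endoplasmic reticulum and is itself an SREBP target, had 1024 and 425 counts, 2.36-fold lower (2.11 to 2.65). Stard4, a sterol carrier, had 288 and 91 counts. Apoe, the lipid carrier made by astrocytes, had 222 and 77. Vldlr, a lipoprotein receptor, was higher with 30 and 156 counts, 5.30-fold (3.57 to 8.12), and had a log2 ratio of 1.41 on PUCL@CNT1. Srebf2, the SREBP gene tied to sterols, stayed short of 2-fold with 2713 and 2076 counts, as did its escort Scap with 704 and 958.

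Fatty acid synthesis shared the direction of the sterol genes. Of 18 tested, 13 (72.2%) were lower and 1 was higher, against 16.2% and 17.1% over all genes, with a median log2 ratio of -1.30 and a summed level of 4056 CPM and 1694 CPM. With a mean of 300 or more counts 8 of 12 were lower. Acss2, the enzyme that activates acetate to acetyl-CoA, had 1677 and 246 counts, 6.68-fold lower (5.84 to 7.67). Its log2 ratio of -2.74 was the lowest of any gene at that depth, and it was -3.09 on PUCL@CNT1. Slc25a1, which exports citrate from mitochondria, had 1910 and 412 counts, 4.54-fold lower (4.08 to 5.07). Acly, which splits that citrate to acetyl-CoA, had 6122 and 2424, 2.48-fold lower (2.36 to 2.60).

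Fasn, fatty acid synthase, had 2222 and 789 counts, 2.76-fold lower (2.54 to 3.0). Elovl6, an elongase, had 1077 and 298 counts, 3.54-fold lower (3.11 to 4.04). The desaturases Scd2, with 7400 and 3054 counts, and Scd1, with 467 and 91, were both lower. Scd1 had the larger ratio, 5.03-fold (4.01 to 6.37). Acaca, the carboxylase that commits acetyl-CoA to synthesis, had 115 and 41 counts on PUCL but 0 and 16 on PUCL@CNT1. Me1, which supplies NADPH, lay the other way with 313 and 515 counts, short of 2-fold. The 1 higher gene, Gpam, had 0 and 18 counts.

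**Figure D4:**
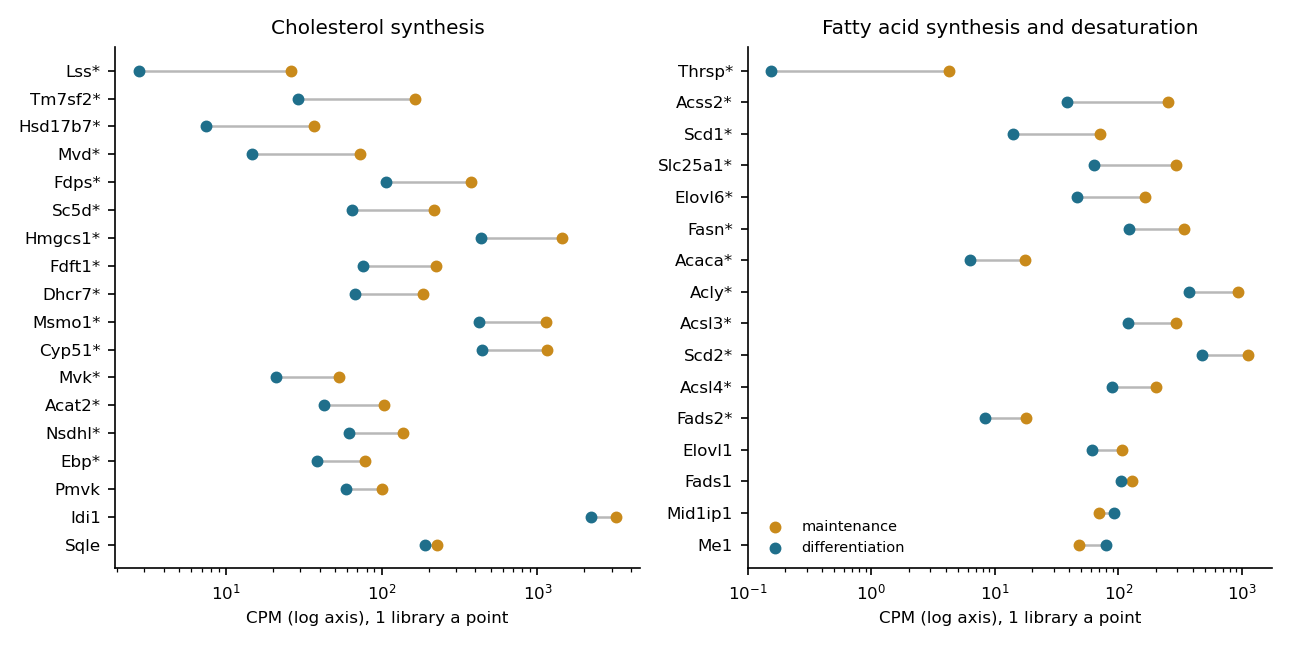
Each row is a tested gene of the cholesterol list (left, 18 genes) or of the fatty acid list (right, the 16 with counts in both libraries), with its CPM on a log axis in the maintenance and differentiation libraries on PUCL, 1 library a point; an asterisk marks a gene past the size rule. All 18 cholesterol genes shown have the differentiation point to the left of the maintenance point.

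Fatty acid oxidation, the breakdown of fatty acids in mitochondria, lay mostly in the other direction. Of 28 genes tested 12 (42.9%) were higher and 3 (10.7%) lower, against 17.1% and 16.2% over all genes, with a median log2 ratio of 0.75. Few were well counted: 9 had a mean of 300 or more counts, and of these 3 were higher, against a background of 3.94%, and 1 was lower. Cpt1a, the enzyme that admits fatty acids to mitochondria, had 603 and 1357 counts, 2.30-fold higher (2.08 to 2.53). Slc25a20, the carrier that works with it, had 350 and 770 counts, 2.24-fold higher (1.98 to 2.55), but a log2 ratio of 0.10 on PUCL@CNT1. Eci1, an isomerase for unsaturated chains, had 226 and 667 counts, 3.01-fold higher (2.59 to 3.52), and was also higher on PUCL@CNT1.

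Acaa1a, a thiolase of peroxisomes rather than mitochondria, was the well-counted member in the lower direction, with 485 and 231 counts. Acot2, a mitochondrial thioesterase, had 8 and 255 counts, a ratio of 32.5-fold (16.3 to 76.1), and 25 and 92 on PUCL@CNT1. Hadha, of the trifunctional complex, had 397 and 618, short of 2-fold. Bdh1, a ketone body dehydrogenase, was lower with 68 and 0.

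Ucp2, a carrier of the inner mitochondrial membrane in the uncoupling protein family, had the largest ratio among genes with a mean of 300 or more counts. It had 95 counts in maintenance and 1971 in differentiation, 21.2-fold higher (17.2 to 26.3), which is 14.4 CPM and 305 CPM. The second pair gave 43 and 876 counts, a log2 ratio of 4.24 beside 4.40 on PUCL. Among the 30 mitochondrial carriers and uncoupling genes tested 8 (26.7%) were higher and 7 (23.3%) lower, against 17.1% and 16.2% over all genes. The family thus did not share one direction. The respiratory chain and ATP synthase, which burn the products of oxidation, passed the rule in neither direction in any of 68 genes. Their median log2 ratio was 0.25, with a range of -0.54 to 0.93 and 49 of 68 above 0, and their summed level was 31784 CPM and 36089 CPM.

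Glycolysis, the breakdown of glucose, had 1 higher and 6 lower of 21 genes, 4.76% and 28.6% against 17.1% and 16.2% over all genes, with a median log2 ratio of -0.36. At a mean of 300 or more counts 3 of 13 were lower, where the background was 5.32%. Hk1, the hexokinase of the first step, had 2598 and 1234 counts, 2.06-fold lower (1.93 to 2.21). Slc2a1, the glucose carrier, had 219 and 49 counts, 4.38-fold lower (3.20 to 6.10), and a log2 ratio of -3.15 on PUCL@CNT1. Eno2, with 1339 and 375, and Tpi1, with 1349 and 638, each came from several rows of the table and are uncertain. On PUCL@CNT1 the list's median was 0.39, of opposite sign, with 2 higher and 1 lower. Among 18 hypoxia response genes 5 (27.8%) were lower, where 16.2% of all genes were, and 1 was higher, Pdk1, a kinase that closes pyruvate dehydrogenase, with 4 and 89 counts. P4ha1, a collagen hydroxylase, had 767 and 251 counts, and Vegfa, the vessel growth factor, had 445 and 176. P4ha1 and Vegfa passed the rule in the same direction on PUCL@CNT1, and Pdk1 passed it in the opposite one, with 85 and 0.

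Genes tied to thyroid hormone and retinoids included the gene with the largest gain. Of 19 tested 9 (47.4%) were higher and 3 (15.8%) lower, against 17.1% and 16.2% over all genes, with a median log2 ratio of 1.11. Crym, which binds thyroid hormone in the cytosol, had 377 and 4678 counts, 12.7-fold higher (11.4 to 14.1). Its gain in CPM was the largest of any gene past the rule, from 57.2 CPM to 724 CPM. On PUCL@CNT1 it had 397 and 2167 counts. Klf9, a transcription factor induced by thyroid hormone and by glucocorticoids, had 716 and 1518 counts, 2.16-fold higher (1.98 to 2.37), and was also higher on PUCL@CNT1. Thra, the main thyroid hormone receptor of neural cells, was short of 2-fold with a log2 ratio of -0.18.

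The targets of the glucocorticoid receptor overlap that list in Klf9. Of 20 tested 8 (40.0%) were higher and 2 (10%) lower, against 17.1% and 16.2% over all genes. With a mean of 300 or more counts 4 of 11 were higher and 0 lower, where the background was 3.94% and 5.32%. Ddit4, an inhibitor of mTOR signalling, had 710 and 2009 counts, 2.89-fold higher (2.65 to 3.15). Tsc22d1 had 672 and 1709, and Tsc22d3, the gene of the glucocorticoid-induced leucine zipper, 70 and 356, 5.19-fold higher (4.01 to 6.8). Not all members shared this. Fkbp5, a chaperone of the receptor, had 817 and 726 counts, and Sgk1, a kinase, 638 and 624. Angptl4, a lipase inhibitor, had 0 and 103 counts, at least 35-fold higher, and 20 and 77 on PUCL@CNT1. Cdkn1c, a cell cycle inhibitor, was lower with 226 and 85.

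Astrocyte genes were mostly above their maintenance level. Of 30 tested 12 (40.0%) were higher and 3 (10%) lower, against 17.1% and 16.2% over all genes, with a median log2 ratio of 0.79. On PUCL@CNT1 the list's median was 0.39, with 3 higher and 3 lower of 27. With a mean of 300 or more counts 5 of 15 were higher and 0 lower, and 14 of the 15 had a log2 ratio above 0. The background at that depth was 3.94% higher. S100b, a calcium-binding protein of astrocytes and of some oligodendrocyte precursors, had 683 and 3939 counts, 5.88-fold higher (5.42 to 6.39). It was 534 and 761 on PUCL@CNT1, short of 2-fold. Clu, clusterin, had 147 and 560 counts, 3.89-fold higher (3.23 to 4.69), with a log2 ratio of 1.69 on PUCL@CNT1. Nfix, a transcription factor of glial differentiation, had 251 and 723 counts, 2.94-fold higher (2.54 to 3.41), and was higher in the second pair too.

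Acsbg1, an acyl-CoA synthetase of astrocytes, had 654 and 1706 counts on PUCL and 480 and 566 on PUCL@CNT1. Slc1a3, the glial glutamate carrier, had 2388 and 4131 and stayed short of 2-fold. The defining late markers of astrocytes were near the floor. Gfap, the intermediate filament, had 0 and 31 counts on PUCL but 19 and 0 on PUCL@CNT1. Aqp4, the water channel, had 0 and 12, and Slc1a2, the later glutamate carrier, was at 0 in both PUCL libraries. Over the 8 astrocyte markers the summed level was 607 CPM in maintenance and 1134 CPM in differentiation, with 5 and 6 detected. On PUCL@CNT1 the same markers summed to 586 CPM and 561 CPM, with 5 and 4 detected, so the second pair did not show the higher level. In bulk RNA a change in the number of cells of a type and a change in RNA per cell cannot be told apart.

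Genes of the oligodendrocyte lineage lay on the same side. Of 27 tested 8 (29.6%) were higher and 4 (14.8%) lower, against 17.1% and 16.2% over all genes. All 12 with a mean of 300 or more counts had a log2 ratio above 0. Of these 3 were higher by the rule, where the background was 3.94%. Olig1, a transcription factor of precursors, had 1874 and 4144 counts, 2.26-fold higher (2.14 to 2.38), and 1670 and 4169 on PUCL@CNT1. Olig2, its neighbour in the same gene pair, had 2978 and 3063. Mbp, myelin basic protein, had 488 and 1194 counts, 2.50-fold higher (2.24 to 2.78). Cnp, another early myelin protein, had 367 and 964, 2.68-fold higher (2.37 to 3.03). Cldn11, the claudin of myelin, had 23 and 386 counts, 17.1-fold higher (11.2 to 27.3), and 100 and 344 in the second pair.

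Against them, Cspg4, a proteoglycan of precursors also found on pericytes, had 105 and 22 counts on PUCL, 4.68-fold lower (2.93 to 7.78), and 26 and 99 on PUCL@CNT1. Ugt8, an enzyme of myelin lipid, had 33 and 0 counts, at least 10.8-fold lower, and 39 and 0 in the second pair. All 8 oligodendrocyte markers were detected in each library, and their sum was 919 CPM in maintenance and 1532 CPM in differentiation, and 830 CPM and 1538 CPM on PUCL@CNT1.

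Progenitor genes were not lower after the switch. Of 23 tested 6 (26.1%) were higher and 0 lower, against 17.1% and 16.2% over all genes, 21 had a log2 ratio above 0, and the median was 0.61. On PUCL@CNT1 3 were higher and 3 lower, with a median of 0.41. Nes, the filament nestin, had 2420 and 3461 counts, and Sox2, a factor that keeps the progenitor state, had 4219 and 6301. Fabp7, a fatty acid binding protein of radial glia, had 4037 and 6921, and Vim, vimentin, 28449 and 31121. These 4 had log2 ratios of 0.54, 0.61, 0.81 and 0.16 and stayed short of the rule. Pax6, a factor of cortical progenitors, had 53 and 246 counts, 4.73-fold higher (3.51 to 6.5), but 21 and 19 on PUCL@CNT1. Ttyh1, a membrane protein of neural precursors, had 222 and 772, 3.55-fold higher (3.05 to 4.14), but 224 and 316 on PUCL@CNT1.

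In the Notch pathway, which keeps progenitors undifferentiated through contact between cells, 7 of 16 genes were higher and 2 lower, 43.8% and 12.5% against 17.1% and 16.2% over all genes. The list's median log2 ratio was 0.47 on PUCL and -0.30 on PUCL@CNT1, of opposite sign; at a mean of 300 or more counts 1 of 5 was higher. Hes1, its main effector, had 249 and 735 counts, 3.01-fold higher (2.60 to 3.49), and was higher on PUCL@CNT1. Jag1, a ligand, had 72 and 339, 4.80-fold higher (3.71 to 6.28). The Delta ligands split: Dll1 had 0 and 59 counts, at least 20.1-fold higher, Dll3 had 37 and 104, and Dll4 had 42 and 0, at least 13.7-fold lower. Nrarp, a target that damps the pathway, had a log2 ratio of -0.26.

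Neuronal genes did not share a direction. Among genes of immature neuron structure 5 of 38 (13.2%) were higher and 9 (23.7%) lower, against 17.1% and 16.2% over all genes, with a median log2 ratio of -0.07. On PUCL@CNT1 12 were higher and 5 lower, with a median of 0.25. Gap43, of growing axons, had 1375 and 496 counts, 2.72-fold lower (2.45 to 3.02), and Mllt11 had 735 and 199, 3.62-fold lower (3.09 to 4.26). On PUCL@CNT1 Gap43 had 815 and 679 and Mllt11 had 578 and 325, both short of 2-fold. Crmp1, a cytoskeletal regulator, had 384 and 124 counts on PUCL and 182 and 252 on PUCL@CNT1. Tagln3, an actin-binding protein of neurons, was higher with 17 and 367, 22-fold (13.6 to 38.2), and 0 and 115 in the second pair. The usual markers of young neurons were sparse. Dcx, doublecortin, had 48 and 79 counts, and Tubb3, the neuronal tubulin, had 28 and 25. Map2, of dendrites, had 552 and 407. Over 10 neuron markers the summed level was 493 CPM in maintenance and 279 CPM in differentiation, with 8 detected in each and Syp at 0 in both, and 406 CPM and 221 CPM on PUCL@CNT1. Whether fewer neurons took part in the values of this paragraph was not tested.

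Synaptic genes were split, with 11 of 36 (30.6%) higher and 8 (22.2%) lower, against 17.1% and 16.2% over all genes, and the median of 0.25 on PUCL was -0.30 on PUCL@CNT1. Nrxn2, a presynaptic adhesion protein, had 352 and 1268 counts, 3.67-fold higher (3.26 to 4.15), and a log2 ratio of 1.83 on PUCL@CNT1. Syn1, synapsin, was lower with 317 and 98 counts, as was Snap25, of the fusion complex, with 191 and 50. Among neuronal transcription factors 2 of 18 (11.1%) were higher and 4 (22.2%) lower. Pou3f2, a POU factor of neural fate, had 340 and 813 counts, 2.44-fold higher (2.15 to 2.78), and 214 and 665 in the second pair.

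Cell cycle genes centred on no difference. In the S phase list 4 of 50 (8%) were higher and 4 lower, with a median log2 ratio of 0.14. In the list of mitosis 2 of 47 were higher and 3 lower, with a median of -0.02. The shares over all genes were 17.1% and 16.2%. At a mean of 300 or more counts, with a background of 3.94% and 5.32%, 0 of 33 S phase genes were higher and 2 lower. Of 39 mitosis genes at that depth 0 were higher and 1 lower. Mki67, the proliferation marker, had 822 and 830 counts, and Cdkn1a, the p21 inhibitor, 1422 and 1810. Hmmr, a spindle protein, had 240 and 15, 15.7-fold lower (9.32 to 28.5), but 88 and 133 on PUCL@CNT1. Fen1, a nuclease of replication, had 683 and 253, and Rpa3, a subunit of the single-strand binding protein, 1093 and 448. On PUCL@CNT1 Fen1 had 340 and 315 and Rpa3 had 319 and 531. The second pair gave Mki67 895 and 470 counts, and list medians of -0.44 and -0.53. The 2 platforms thus had medians on different sides or at different distances from 0; this was not tested.

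Genes that answer FGF and EGF, the growth factors of progenitor culture, did not stand out from all genes on the lower side. Of 21 tested 4 (19.0%) were lower, close to the 16.2% of all genes, and 1 (4.76%) was higher, with a median of -0.39. None of the 10 with a mean of 300 or more counts passed the rule, and the list's median on PUCL@CNT1 was 0.01. Hbegf, an EGF receptor ligand, had 367 and 109 counts, and Dusp5, a phosphatase that damps ERK, 207 and 32. The most counted members stayed short of 2-fold. Dusp6 had 12656 and 8101 and Ccnd1, cyclin D1, 18766 and 12271, while Etv5 had a log2 ratio of -0.13. Immediate early genes were split between 4 higher (21.1%) and 5 lower (26.3%) of 19. Arc, of active synapses, had 1424 and 489 counts, 2.85-fold lower (2.57 to 3.17). Fos was higher with 11 and 111, but had 144 and 106 on PUCL@CNT1. Egr1 was lower with 82 and 6, but had 13 and 13 there.

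Iron and stress genes held several well-counted differences. Tfrc, the transferrin receptor that imports iron, had 1959 and 460 counts, 4.17-fold lower (3.77 to 4.63), with a log2 ratio of -1.78 on PUCL@CNT1. Fth1, the ferritin heavy chain that stores iron, had 8785 and 13276, short of 2-fold. Tf, transferrin, had 1 and 386 counts, a ratio of 394-fold whose interval ran from 70.3 to 15592, and Cp, the plasma copper oxidase ceruloplasmin, had 0 and 363, at least 123-fold higher. The second pair gave Tf 39 and 119 counts and Cp 9 and 110. Over the 20 iron genes 6 (30%) were higher and 2 (10%) lower, against 17.1% and 16.2% over all genes. On PUCL@CNT1 4 were higher and 4 lower.

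In the integrated stress response, which adjusts translation and amino acid supply, 6 of 40 (15.0%) were higher and 4 (10%) lower. The shares over all genes were 17.1% and 16.2%. At a mean of 300 or more counts 1 of 27 was higher and 1 lower, where the background was 3.94% and 5.32%. The list's median was -0.34 on PUCL and 0.20 on PUCL@CNT1. Chac1, which degrades glutathione, had 266 and 43 counts, 6.06-fold lower (4.38 to 8.58), and Iars, the isoleucyl tRNA synthetase, 528 and 159. On PUCL@CNT1 Chac1 had 242 and 193, short of 2-fold, and Iars had 717 and 369, lower by the rule. Slc7a11, the cystine carrier, was higher with 95 and 465, 4.99-fold (4.0 to 6.29), and also in the second pair. The small heat shock proteins Hspb1, with 241 and 748 counts, and Cryab, with 113 and 359, were higher on both platforms. Tcp1, a subunit of the chaperonin that folds actin and tubulin, was lower with 1535 and 643. The heat shock list as a whole had a median of -0.14, with 4 of 35 (11.4%) higher and 2 (5.71%) lower. At a mean of 300 or more counts 1 of 25 was higher and 1 lower, where the background was 3.94% and 5.32%.

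Matrix genes differed mostly by less than 2-fold. Of 18 extracellular matrix genes with a mean of 300 or more counts none passed the rule, against a background of 3.94% and 5.32%. Of the 18, 16 had a log2 ratio above 0, with a median of 0.62. Sparc, a matrix glycoprotein, had 3173 and 5860 counts and Col4a1, of basement membranes, 3322 and 5045. At lower counts Fbn1, fibrillin, had 184 and 19, and Col1a2, a fibroblast collagen, 133 and 5, both lower. Proteases and inhibitors held larger ratios. Serpine2, an inhibitor of thrombin and plasminogen activators, had 2486 and 5259 counts, 2.16-fold higher (2.06 to 2.26). Plat, a plasminogen activator, had 352 and 1042, 3.02-fold higher (2.67 to 3.42). On PUCL@CNT1 Serpine2 had 2123 and 3414 and Plat had 417 and 576, both short of 2-fold. Mmp2, a gelatinase, had 6 and 205 counts, 34.9-fold higher (15.7 to 96.1), and 29 and 200 on PUCL@CNT1.

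Targets and coactivators of YAP and TAZ, which respond to stretch and stiffness, had 0 higher and 5 lower of 19 on PUCL, 0% and 26.3% against 17.1% and 16.2% over all genes, with a median log2 ratio of -0.52. On PUCL@CNT1 the list had 3 higher and 2 lower of 18, with a median of 0.14, and 1 gene had opposite calls on the 2 platforms. Wwtr1, the gene of TAZ, had 485 and 124 counts, 3.83-fold lower (3.14 to 4.71), but 516 and 483 on PUCL@CNT1. Cyr61, a secreted target, had 268 and 80, and was lower on both platforms. Acta2, smooth muscle actin, had 6920 and 3223 counts, 2.10-fold lower (2.02 to 2.20), and a log2 ratio of -1.12 in the second pair. Sdc4, a heparan sulfate proteoglycan of focal adhesions, had 4943 and 2019, 2.40-fold lower (2.28 to 2.53), but 3544 and 3096 on PUCL@CNT1. Markers of mural cells and fibroblasts summed to 1084 CPM in maintenance and 503 CPM in differentiation, nearly all of it Acta2, with Dcn, Lum and Rgs5 at 0, and to 764 CPM and 366 CPM on PUCL@CNT1. The actins and contractile proteins as a list had a median of 0.06, with 7 of 47 (14.9%) higher and 2 (4.26%) lower.

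Galectins, annexins and S100 proteins, which bind sugars, membranes and calcium, were higher in 10 of 20 genes (50%) and lower in 3 (15.0%), against 17.1% and 16.2% over all genes, with a median log2 ratio of 0.91. Lgals1, galectin 1, had 1092 and 2960 counts, 2.77-fold higher (2.58 to 2.97), and Anxa1, an annexin of inflammation, 83 and 497, 6.11-fold higher (4.83 to 7.80). Both were higher on PUCL@CNT1. Anxa6 had 1615 and 3431. Anxa5 went the other way with 512 and 242 on PUCL, and had 421 and 823 on PUCL@CNT1. B2m, the light chain of MHC class I, had 2481 and 5013 counts, 2.06-fold higher (1.96 to 2.16), with a log2 ratio of 0.86 in the second pair. Over the list of antigen presentation and inflammation 12 of 30 (40.0%) were higher and 6 (20%) lower, and 4 genes had opposite calls on the 2 platforms. Lysosomal genes were higher in 15 of 59 (25.4%) and lower in 7 (11.9%), against 17.1% and 16.2% over all genes. Grn, progranulin, had 734 and 1639 counts and Lamp2, a lysosomal membrane protein, 251 and 543, and both were higher on the 2 platforms. Ctsh, a cathepsin, had 126 and 546.

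Signalling and guidance genes were divided within each pathway. In the Id and BMP list 4 of 23 (17.4%) were higher and 6 (26.1%) lower, against 17.1% and 16.2% over all genes. The list's median log2 ratio was -0.57 on PUCL and 0.33 on PUCL@CNT1. Ltbp1, which stores TGF-beta in the matrix, had 269 and 929 counts, 3.52-fold higher (3.07 to 4.05), and Id2, an inhibitor of helix-loop-helix factors, had 119 and 327. Both were higher on PUCL@CNT1. Smad5, which carries BMP signals, had 74 and 20 and was lower on both platforms. In the Wnt pathway 4 of 22 (18.2%) were higher and 2 (9.09%) lower, near or below the shares over all genes. Dkk3, a secreted member of the Dickkopf family, had 62 and 243 counts, and 17 and 148 in the second pair.

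Among axon guidance genes 11 of 33 (33.3%) were higher and 8 (24.2%) lower, against 17.1% and 16.2% over all genes. The Eph receptors, which sense neighbouring cells, lay on both sides. Ephb1 had 273 and 630 counts and Ephb3 had 41 and 229, while Epha7 had 233 and 29 and Epha2 had 215 and 34. None of these 4 passed the rule on PUCL@CNT1. Sema3e, a secreted guidance cue, had 254 and 501 on PUCL and 130 and 323 on PUCL@CNT1. Of 45 cadherins and adhesion molecules 13 (28.9%) were higher and 6 (13.3%) lower. Cdh6, a cadherin, had 155 and 513 counts, 3.38-fold higher (2.82 to 4.07), and Astn1, a protein of neurons migrating on glia, had 83 and 369, both higher in the second pair. Of 13 integrins and adhesion plaque genes 3 (23.1%) were higher and 1 lower. Itgb5, an integrin that binds vitronectin, had 381 and 994 counts, 2.66-fold higher (2.36 to 3.0), and 48 and 301 on PUCL@CNT1. Pxn, paxillin, had 192 and 66, and 244 and 197 there.

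The large complexes of the cell showed little. None of 81 cytosolic ribosomal protein genes passed the rule in either direction, with a median log2 ratio of -0.01 and a range of -0.68 to 0.63. Of 38 proteasome genes 1 was higher and 0 lower, and of 51 core splicing factors 0 were higher and 2 lower. Over all genes 17.1% were higher and 16.2% lower, or 3.94% and 5.32% at a mean of 300 or more counts. The 5.8S ribosomal RNA entry Rn5-8s, summed over 4 rows, had 7811 and 2977 counts, while Rn45s took a larger share of counts in differentiation; how such RNA entered each library was not tested.

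**Figure D5:**
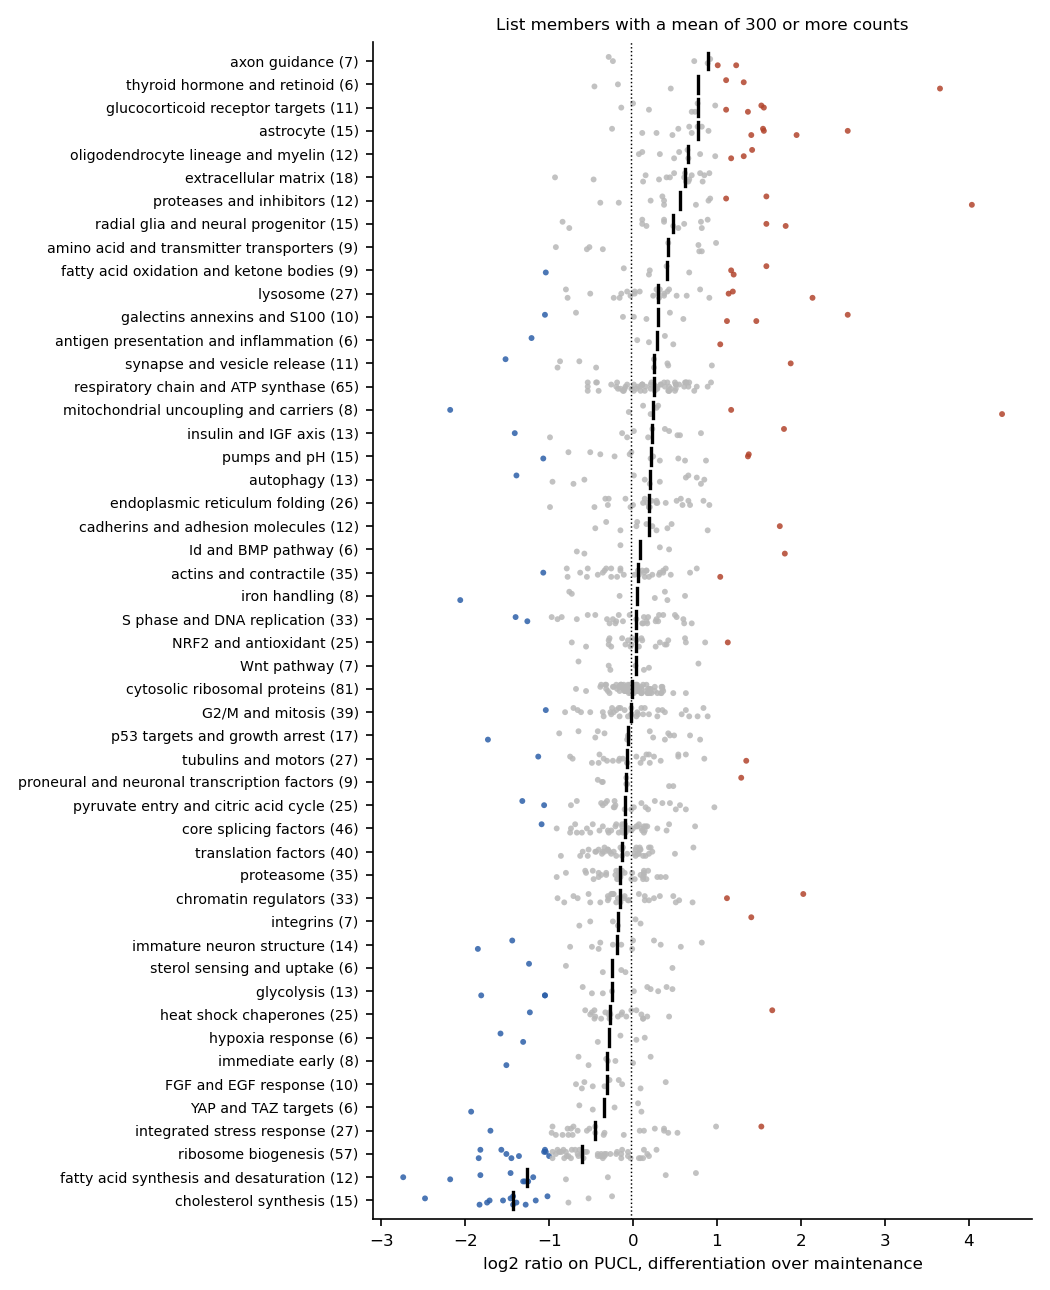
Each row is a gene list with at least 6 members of a mean of 300 or more counts (number in brackets), each point a member's log2 ratio on PUCL, coloured where it passed the size rule, and each bar the list's median; the dotted line marks the median of -0.03 over all 3630 genes at that depth. Cholesterol synthesis (-1.43) and fatty acid synthesis (-1.27) lie lowest, and axon guidance (0.89), thyroid hormone and retinoid (0.78), glucocorticoid targets (0.77) and astrocyte genes (0.77) highest; the ribosome biogenesis list was written after its values had been seen.

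The 10 largest gains in CPM were spread over many of these groups, while most of the 10 largest losses were genes of lipid synthesis. The gains were Crym, S100b, Serpine2, B2m, Olig1, Btbd17, Lgals1, Ucp2, Tspan7 and Anxa6. Btbd17 had 868 and 2838 counts, 3.34-fold higher (3.09 to 3.60), with 349 and 1222 on PUCL@CNT1. Tspan7, a tetraspanin, had 600 and 2450, 4.17-fold higher (3.81 to 4.56). The losses included Hmgcs1, Rn5-8s, Cyp51, Msmo1, Scd2, Acly, Acta2, Sdc4 and Fdps. Of the 10 losses 7 belong to sterol or fatty acid synthesis. Each of the 20 had the same sign on PUCL@CNT1, and 6 of the 10 gains and 6 of the 10 losses passed the rule there.

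Genes at 0 in 1 PUCL library made up much of the rest. In maintenance 540 compared genes were at 0 and in differentiation 558, with a median of 26 counts in the other library in each case. All of them were past the rule, but this was fixed in advance. A gene at 0 was compared only with 10 or more counts in the other library, and that always passes the rule. Of the 540, 301 (55.7%) were also at 0 on PUCL@CNT1 in maintenance, and 154 (28.5%) had 10 or more counts there. Of the 558, 251 (45.0%) were also at 0 on PUCL@CNT1 in differentiation and 245 (43.9%) had 10 or more. The genes with the nearer bound farthest from 1 were nearly all of this kind, 11 of 12 higher and 12 of 12 lower.

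Rab7b, a small GTPase of endosomes, had 0 and 399 counts, at least 136-fold higher, and 15 and 106 on PUCL@CNT1. Pc, the pyruvate carboxylase that refills the citric acid cycle, had 0 and 156, at least 53-fold higher, and 0 and 60 in the second pair. Manba, a lysosomal mannosidase, had 0 and 172 and again 0 and 51. Mmp10, a stromelysin, had 0 and 192, with 38 and 151 in the second pair. Others had counts in both PUCL@CNT1 libraries with no difference. Klc1, a kinesin light chain, had 0 and 231 counts on PUCL but 50 and 51 on PUCL@CNT1, and Cachd1 had 0 and 140 against 72 and 62. Of these 12 higher genes 8 passed the rule in the second pair.

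On the lower side Sult5a1, a sulfotransferase, had 238 and 0 counts, at least 77.8-fold lower, and 178 and 0 on PUCL@CNT1. Miat, a long noncoding RNA, had 171 and 0, and 112 and 3. Pdia5, a disulfide isomerase, had 129 and 0, and 48 and 0. Stxbp5, a syntaxin binding protein, had 184 and 0 on PUCL but 96 and 105 on PUCL@CNT1, and Brf1, of RNA polymerase III, 149 and 0 against 98 and 93. Of the 12 lower genes 7 passed the rule in the second pair.

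The genes nearest the limits of the rule had few counts. Kdm4c, with 2 and 13 counts (6.63-fold, nearer bound 1.501), was just inside on the higher side, and Rufy2, with 22 and 54 (2.50-fold, 1.5), just outside. Shtn1, with 117 and 55, was just inside on the lower side and Pfkfb2, with 34 and 11, just outside.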

How the data were processed

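RNA of the 4 groups was sequenced from the 3′ end with the Lexogen QuantSeq kit, from 500 ng of total RNA taken with Trizol, per the labels' protocols. The deposited values are raw counts per gene symbol made by the authors, as whole numbers with no normalization; Bowtie2, bedtools and the rn6 build are named in the submitters' processing notes. Versions, annotation, strand setting, duplicate handling and filters are not given in the sources used here, so overlapping and antisense genes cannot be told apart and near-identical copies may share reads. Rows sharing a symbol were summed (149 of 16881 symbols, from 17048 rows). Such symbols are uncertain, and 14 of them were past the size rule. No row lacks a gene name.

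Symbols with under 10 counts in both PUCL libraries (7081, of which 6433 were at 0 in both) were left out. Libraries were scaled over all 4 by TMM in edgeR 4.0.16 under R 4.3.3, with factors of 1.01 and 0.982 for maintenance and differentiation on PUCL. Log2 ratios used a prior count of 0.5. Each ratio has an exact 95% interval (Clopper-Pearson, scipy 1.17.1) from the share of its 2 counts that fell in 1 library. For bounds, 3 counts stood in for 0 in a library (0.455 and 0.464 CPM on PUCL). Such a bound takes the other count without error. With 1 library a group, edgeR was used for scaling only and no test was run. The size rule was checked on simulated counts that held counting error only. That check shares the assumption of the interval, so it cannot show how the rule behaves under scatter between cultures.

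The lists (56, with 1918 genes in the files and 1576 compared) and markers were chosen with earlier results of these data known, as was the comparison itself. Genes were named by 4 rules: the 12 higher and 12 lower with the nearer bound farthest from 1, the 10 largest gains and losses in CPM past the rule, the leading gene of each list in each direction, and 16 fixed markers. The alternatives were other scalings, filters, fold limits and prior counts, and leaving out symbols of several rows. Symbols were matched to RefSeq (GRCr8): 14393 as current, 2096 as older and 392 as neither. RefSeq served for promoters only. Some genes that the rules name are not reported here by name; they stay in the counts.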

Additional observations from a re-analysis of the deposited data

Results flagged for a closer look

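For 12 genes named by the rules, and 5 others named in the text after their values were seen, the switch gave calls in opposite directions on the 2 platforms. With 1 library a group, each of these differences between the platforms was not tested. Counts are given as maintenance, then differentiation. Each of the 12 had 0 counts or 1 count in at least 1 of the 4 libraries.

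Higher on PUCL and lower on PUCL@CNT1 were 3 genes. Pdk1, the kinase that closes pyruvate dehydrogenase, had 4 and 89 counts on PUCL, a log2 ratio of 4.34, and 85 and 0 on PUCL@CNT1. Gli3, a Hedgehog transcription factor, had 0 and 26 counts, at least 8.84-fold higher, and 39 and 0 on PUCL@CNT1. Gfap, the astrocyte filament, had 0 and 31 counts, at least 10.5-fold higher, and 19 and 0 on PUCL@CNT1.

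Lower on PUCL and higher on PUCL@CNT1 were 9 genes. Bdh1, a ketone body dehydrogenase, had 68 and 0 counts, at least 22.2-fold lower, and 0 and 57 on PUCL@CNT1. Cdon, a Hedgehog co-receptor, had 42 and 0, at least 13.7-fold lower, and 2 and 15. Prox1, a homeobox factor, had 49 and 0, at least 16-fold lower, and 0 and 30. Rpa1, the large subunit of the single-strand DNA binding protein, had 27 and 0, at least 8.82-fold lower, and 0 and 13. Gsta4, a glutathione transferase, had 40 and 8, a log2 ratio of -2.22, and 1 and 45. Hspa2, a heat shock protein, had 76 and 0, at least 24.8-fold lower, and 29 and 130. Mylk, the myosin light chain kinase, had 20 and 0, at least 6.54-fold lower, and 0 and 40. Adamts4, a matrix protease, had 65 and 0, at least 21.2-fold lower, and 21 and 102. Tppp3, a tubulin binding protein, had 38 and 0, at least 12.4-fold lower, and 4 and 26. Over all genes past the rule on PUCL and measured on PUCL@CNT1, 197 of 1342 higher genes (14.7%) and 217 of 1312 lower genes (16.5%) had opposite calls. These shares were near those of all genes compared on PUCL@CNT1, where 15.3% were lower and 17.5% higher.

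The 5 others include the 3 genes with a mean of 300 or more counts on PUCL that had opposite calls. LOC100910558 had 766 and 1529 counts on PUCL, a log2 ratio of 1.03, and 849 and 445 on PUCL@CNT1, a log2 ratio of -1.02. Uhrf2, a ubiquitin ligase that reads DNA methylation marks, had 345 and 878, a log2 ratio of 1.38, and 714 and 377, a log2 ratio of -1.01. Arhgef2, an exchange factor bound to microtubules, had 484 and 192, a log2 ratio of -1.30, and 138 and 405, a log2 ratio of 1.46. Acaca, the acetyl-CoA carboxylase, had 115 and 41, a log2 ratio of -1.45, and 0 and 16. Cspg4, the precursor proteoglycan, had 105 and 22, a log2 ratio of -2.20, and 26 and 99.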

How the results depend on the processing

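The counts of 1677 higher and 1588 lower genes became 1108 and 1005 when 50 counts in 1 library were asked for. They became 143 and 193 with a mean of 300 or more counts. Fewer genes were compared, 8035 and 3630 in place of 9800, and the share past the rule fell as well. From 17.1% higher and 16.2% lower it went to 13.8% and 12.5% at 50 counts, and to 3.94% and 5.32% at a mean of 300. Under total-count scaling (1607 and 1671), totals without ribosomal RNA, DESeq2 size factors (1700 and 1555) and TMM of the 2 PUCL libraries, both counts stayed within 1.5 times. The same held with no filter, a filter over 4 libraries, a 3-fold limit (1142 and 1069), 2-fold without a bound and symbols of several rows left out. Other prior counts could not alter these counts, because the size rule uses the ratio and its interval without a prior count. Of 1028 log2 ratios of named genes under the other scalings, prior counts and handling of such symbols, 1027 stayed within their interval. None of the genes past the rule changed sign, and Mki67, not past it, went from 0.04 to just below 0 (-0.00) with total counts. Of 616 list counts 96 moved, 53 of them with a mean of 300 or more counts, 25 at the 3-fold limit and 18 at 50 counts. No paired analysis was possible because the PUCL comparison has 1 library on each side, so it holds nothing to pair and no library to leave out; a joint fit of both platforms would ask another question and was not run. Scatter between cultures is unknown. Pairs in the same medium, which differ in platform, passed the size rule nearly as often as the switch under 100 counts, and still in 21.7% and 27.9% of genes at 100 to 300 counts.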

Other observations

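Genes of ribosome biogenesis, the nucleolar machinery that makes ribosomes, were read from a list written after the values had been seen. Of 57 members with a mean of 300 or more counts 10 were lower and 0 higher, where the background was 5.32% and 3.94%. Of the 57, 50 had a log2 ratio below 0, with a median of -0.61 on PUCL and -0.48 on PUCL@CNT1. Riok2, a kinase of the small subunit, had 654 and 179 counts, 3.58-fold lower (3.03 to 4.25), and 554 and 289 on PUCL@CNT1. Polr1c, a subunit of RNA polymerases I and III, had 973 and 334, 2.86-fold lower (2.52 to 3.24), but 598 and 612 in the second pair. Ddx49, a helicase of the nucleolus, had 470 and 130. The abundant nucleolar proteins Ncl, with 5233 and 3095 counts, and Npm1, with 3554 and 2019, stayed short of 2-fold, with log2 ratios of -0.73 and -0.79. The ribosomal proteins themselves had a median of -0.01. Choosing the list by its values means its counts are a description only.

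Gene families taken by their symbol prefix gave further values. The shares over all genes were 17.1% higher and 16.2% lower, or 3.94% and 5.32% at a mean of 300 or more counts. Of 13 histone genes 7 were higher and 1 lower, with a median log2 ratio of 1.03. With a mean of 300 or more counts 2 of 5 were higher and 0 lower. Among them Hist1h1b, a linker histone, had 388 and 1193 counts, and 416 and 491 on PUCL@CNT1. H1f0, the linker histone of cells that leave the cycle, had 121 and 486, 4.10-fold higher (3.35 to 5.04), and 174 and 453 in the second pair. Of 67 mitochondrial ribosomal proteins 1 was higher and 6 lower. With a mean of 300 or more counts 0 of 50 were higher and 5 lower. Mrps34 had 662 and 212 counts and Mrpl22 had 1144 and 424, the latter with 1035 and 1262 on PUCL@CNT1. Solute carriers were higher in 53 of 175 and lower in 35. With a mean of 300 or more counts 5 of 36 were higher and 3 lower.

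Ion transport genes differed by list. Slc4a4, a bicarbonate carrier of astrocytes, had 633 and 1619, 2.61-fold higher (2.38 to 2.86), and 213 and 388 on PUCL@CNT1. This gene was picked with its values known. Of 29 pumps and pH regulators 11 (37.9%) were higher and 3 (10.3%) lower, and of 33 ion channels 10 (30.3%) were higher and 8 (24.2%) lower with a median log2 ratio of -0.16, against 17.1% and 16.2% over all genes. Igfbp7, an insulin-like growth factor binding protein, had 268 and 919 counts, and Igf2bp2, an RNA-binding protein of progenitors, had 1297 and 478 on PUCL but 608 and 687 on PUCL@CNT1.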
